A study of Mus musculus with 8 samples.

Results

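The transcripts of 10 genes that serve the remodelling and shaping of the haploid male germ cell were followed in RNA-seq of mouse testes at postnatal day 12. They are the transition protein genes *Tnp1* and *Tnp2*, the protamine genes *Prm1*, *Prm2* and *Prm3*, the outer dense fibre genes *Odf1* and *Odf2*, and *Smcp*, *Spem1* and *Oaz3*. The genes were chosen by name for their known roles, with earlier results of these data known. They make up 10 of the 24651 genes obtained when the read counts were summed per gene symbol. The study compared 4 wild type and 4 *Morc2b*-/- males to ask how loss of *Morc2b*, a germ cell gene of the MORC family, alters the testis transcriptome. Each sample was the total RNA of 1 pair of testes, on a mixed strain background, and the samples are called WT1 to WT4 and KO1 to KO4 after the genotype and number in their labels. The *Morc2b*-/- allele lacks exon 2, which holds the whole coding region, and carries the PGKNeo selection cassette in its place. All *Morc2b*-/- animals trace to a single targeted embryonic stem cell line and came from intercrosses of heterozygotes. The sample labels call the controls wild type, whereas the series' design text calls them *Morc2b*+/-, and the labels were followed here.

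In the last phase of sperm formation, the spermatid replaces its histones first with transition proteins and then with protamines, small basic proteins that pack the DNA tightly. At the same time it builds the flagellum, with its outer dense fibres and mitochondrial sheath, and sheds most of its cytoplasm. The mRNAs of these proteins are made in round spermatids and are often stored before they are translated. In the first wave of spermatogenesis, spermatids have not yet formed at this age, when the most advanced germ cells are in early meiotic prophase.

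The basic character of the nuclear proteins can be read from the coding sequence. The coding sequences of *Prm1* and *Tnp1*, as the GENCODE models on NCBIM37 give them on the minus strands of chromosomes 16 and 1, are shown because these genes stand for the protamines and the transition proteins, with arginine codons in capitals.
Prm1: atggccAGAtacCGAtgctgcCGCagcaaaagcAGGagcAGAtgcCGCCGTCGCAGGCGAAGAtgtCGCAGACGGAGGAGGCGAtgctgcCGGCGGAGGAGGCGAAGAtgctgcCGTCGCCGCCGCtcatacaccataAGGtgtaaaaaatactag
Tnp1: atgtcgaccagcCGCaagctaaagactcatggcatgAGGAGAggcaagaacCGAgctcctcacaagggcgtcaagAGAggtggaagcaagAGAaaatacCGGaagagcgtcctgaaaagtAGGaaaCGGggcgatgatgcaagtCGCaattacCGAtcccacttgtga
Arginine codons made up 54.9% of the 51 codons of *Prm1*, the highest share among the 21614 genes with a usable coding sequence, and 35.5% of those of *Prm2*, which ranked 2. The share was 20% in *Tnp1*, which also had 18.2% lysine codons, and 13.7% in *Tnp2*, against a median over all genes of 5.38% for arginine and 5.35% for lysine. *Prm3* differed from its neighbours, with 1.98% arginine codons and rank 21100. Cysteine codons made up 22.4% of *Smcp*, 17.6% of *Prm1* and 16.5% of *Odf1*, against a median of 2.14%.

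A run of 4 genes lies side by side on chromosome 16 (NCBIM37, also called mm9), all on the minus strand. *Tnp2* lies at chr16:10788029-10788748, *Prm3* at chr16:10790600-10791006, *Prm2* at chr16:10791476-10792198 and *Prm1* at chr16:10796419-10796979. The cluster spans 8951 bases, and *Prm3* and *Prm2* are only 469 bases apart. *Prm3* is annotated as a single exon, and each of the other 3 has 2 exons. *Tnp1* lies apart from them at chr1:73061657-73062473.

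To show the letters in front of genes of this group, the 100 bases before the annotated start are given for *Tnp1*, *Prm1*, *Prm3* and *Prm2* (RefSeq on GRCm38.p6, minus strand). Capitals mark matches to TGANNTCA, the outline of a cAMP response element, the motif bound by CREM, an activator of spermatid genes.
Tnp1, chr1:73015900-73015999: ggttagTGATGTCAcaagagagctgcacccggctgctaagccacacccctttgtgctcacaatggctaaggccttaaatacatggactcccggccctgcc
Prm1, chr16:10796824-10796923: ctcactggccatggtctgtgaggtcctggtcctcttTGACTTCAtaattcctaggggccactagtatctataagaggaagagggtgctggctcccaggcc
Prm3, chr16:10790915-10791014: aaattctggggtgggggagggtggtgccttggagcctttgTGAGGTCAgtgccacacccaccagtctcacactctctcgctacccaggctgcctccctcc
Prm2, chr16:10792106-10792205: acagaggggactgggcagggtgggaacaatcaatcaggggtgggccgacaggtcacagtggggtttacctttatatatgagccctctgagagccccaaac
The match was TGATGTCA in *Tnp1*, TGACTTCA in *Prm1* and TGAGGTCA in *Prm3*, and it began 94, 64 and 60 bases before the start. Over the window of 250 bases before to 50 bases after the start, searched on both strands, 4 of the 8 genes with a window held a match, the fourth being *Smcp*. Of all 32851 windows of that length, 14.1% held a match. This is a share of windows and not of genes, since a gene such as *Odf2* can have several windows. The letters describe these windows and do not show that a factor binds there. No window was given for *Odf1* and *Oaz3*.

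The libraries held 27144796 to 36941755 counts each. All 10 genes passed the filter on low counts, under which 13507 genes were tested. The targeted gene *Morc2b* had 428, 443, 24 and 1272 counts in WT1 to WT4 and 10, 10, 115 and 2 in KO1 to KO4. The log2 difference was -4.09 (SE 1.21), although WT3 had fewer counts than KO3. Its adjusted p was 0.9998 by edgeR's quasi-likelihood test with Benjamini-Hochberg adjustment. Genes of the epididymis, a duct joined to the testis, summed to 279 CPM (read counts scaled to library size, TMM-normalized) in WT1 and to 17.7 to 32.2 CPM in the other 7 samples. Of the 22 epididymis genes, 6 were at 0 in all samples, *Lcn5*, *Lcn9*, *Crisp4*, *Rnase10*, *Teddm1a* and *Bsph1*, while *Spink8* had 4329 counts in WT1. In KO3, the sample with the most transcripts of the 10 genes, *Cst8*, which was detected in all 8 samples, made up 26.0 of the 32.0 CPM, and *Spink8* and *Crisp1* had 10 and 9 counts. KO2 had 224 and 212 counts of *Spink8* and *Crisp1*, and the other 5 samples had 7 or fewer of each.

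The 10 genes together made up very different amounts of the 8 libraries, and the differences did not follow genotype. Their summed counts were 6226, 66, 99 and 69 in WT1 to WT4 and 634, 1455, 12132 and 62 in KO1 to KO4. KO3 and WT1 together held 88.5% of the 20743 counts. Even in KO3 the sum was 0.0350% of the library. In CPM, KO3 was the highest and WT1 the second highest sample for 10 of 10 genes, an order found for 4.41% of all genes tested. For *Odf2* these samples were level, with 0.601 CPM in KO3 and 0.599 in WT1, and in counts WT1 was above KO3. For 8 of 10 genes KO2 and KO1 came next, in that order. These orders are a description and not a test, since the genes were chosen with earlier results known. Because these are whole testes, fewer cells of a type and less RNA per cell cannot be told apart.

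**Figure D1:**
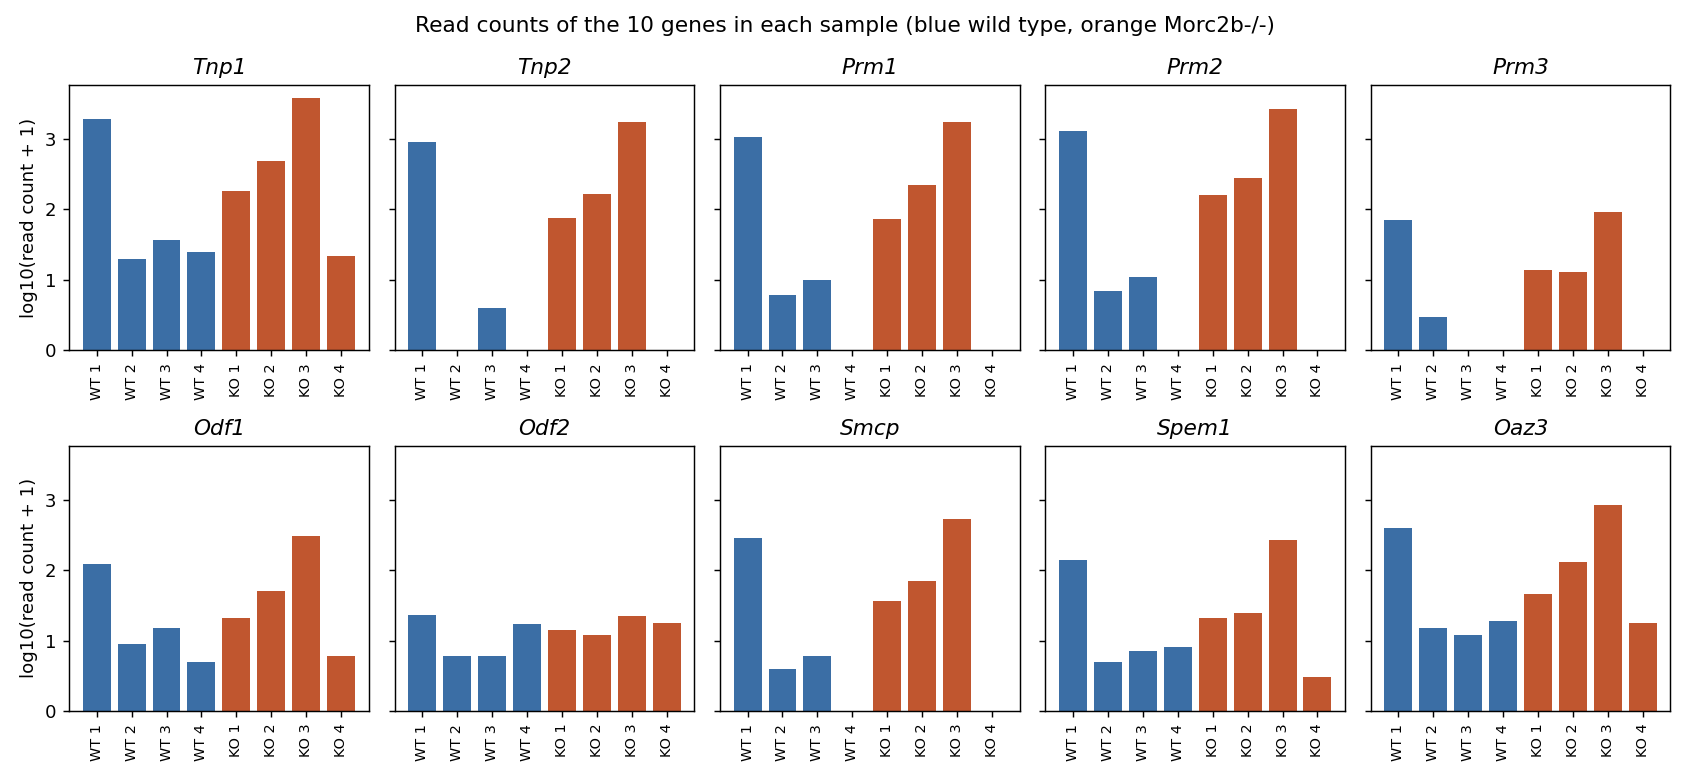
Counts of each of the 10 genes (panels) in the 4 wild type (WT1 to WT4) and 4 *Morc2b*-/- samples (KO1 to KO4), each bar 1 sample, with the vertical axis as log10 of the count plus 1. For *Tnp1* the bars stand for 1942 counts in WT1 and 3884 in KO3, and *Odf2*, with 5 to 22 counts, is the panel with the least spread. Blue marks wild type and orange *Morc2b*-/- samples.

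Among the transition protein genes, *Tnp1* was the most abundant of the 10 in counts. *Tnp1* had 1942, 19, 36 and 24 counts in WT1 to WT4 and 183, 491, 3884 and 21 in KO1 to KO4. It was detected in every sample, and both genotypes held a library near 20 counts and a library with many times more. The means were 13.9 ± 26.0 CPM in wild type and 32.8 ± 52.5 CPM in *Morc2b*-/- testes (SD, n = 4 each), with a log2 difference of 1.22 (SE 1.59). WT1 alone held 95.1% of the wild type CPM and KO3 held 84.8% of the *Morc2b*-/- CPM. *Tnp2*, whose product works beside that of *Tnp1* in the condensing nucleus, had 895, 0, 3 and 0 counts in WT1 to WT4 and 74, 166, 1766 and 0 in KO1 to KO4. Unlike *Tnp1*, it was at 0 in 3 libraries. Its means were 6.12 ± 12.2 and 14.4 ± 24.2 CPM (SD, n = 4 each), a log2 difference of 1.21 (SE 1.86).

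KO3 and WT1 were also the highest samples for the protamine genes. *Prm1*, which encodes the protamine common to mammals, had 1075, 5, 9 and 0 counts in WT1 to WT4 and 73, 225, 1722 and 0 in KO1 to KO4. *Prm2*, whose product is made as a precursor and trimmed, had 1288, 6, 10 and 0 counts in WT1 to WT4 and 158, 278, 2702 and 0 in KO1 to KO4. Both genes were at 0 in WT4 and in KO4, 1 library of each genotype. The means in wild type and *Morc2b*-/- testes were 7.44 ± 14.5 and 14.4 ± 23.4 CPM for *Prm1* (SD, n = 4 each). For *Prm2* they were 8.91 ± 17.4 and 22.5 ± 36.7 CPM. *Prm3*, the least abundant gene of the cluster, had 69, 2, 0 and 0 counts in WT1 to WT4 and 13, 12, 90 and 0 in KO1 to KO4. The log2 differences were 0.94 (SE 1.78), 1.32 (SE 1.80) and 0.71 (SE 1.41) for *Prm1*, *Prm2* and *Prm3*.

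Among the genes of the flagellum and cytoplasm, all but *Odf2* had KO3, WT1, KO2 and KO1 as their highest samples, in that order, while the order of the other samples varied. *Odf1*, a protein of the outer dense fibres (chr15:38148958-38156490), had 122, 8, 14 and 4 counts in WT1 to WT4 and 20, 50, 305 and 5 in KO1 to KO4. *Smcp*, the cysteine-rich protein of the sperm mitochondrial capsule (chr3:92387814-92392896), had 282, 3, 5 and 0 counts in WT1 to WT4 and 35, 69, 541 and 0 in KO1 to KO4. *Odf1* was seen in all 8 libraries, whereas *Smcp* was at 0 in WT4 and KO4. *Spem1*, needed for removal of cytoplasm from the sperm head (chr11:69634378-69635682), had 139, 4, 6 and 7 counts in WT1 to WT4 and 20, 24, 264 and 2 in KO1 to KO4. *Oaz3*, an antizyme of ornithine decarboxylase made in spermatids (chr3:94237088-94240538), had 392, 14, 11 and 18 counts in WT1 to WT4 and 45, 129, 837 and 17 in KO1 to KO4. *Oaz3* therefore stayed between 11 and 18 counts in the 4 libraries with the fewest transcripts of the 10 genes. The log2 differences were 1.34 (SE 1.21) for *Odf1*, 1.19 (SE 1.65) for *Smcp*, 1.00 (SE 1.33) for *Spem1* and 1.26 (SE 1.32) for *Oaz3*.

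The counts of *Odf2* behaved differently from those of the other 9 genes. Its product is found both in outer dense fibres and in the appendages of the centriole in many cell types. It had 22, 5, 5 and 16 counts in WT1 to WT4 and 13, 11, 21 and 17 in KO1 to KO4, and WT1 and KO3 held 39.1% of its counts. The means were 0.366 ± 0.217 CPM in wild type and 0.476 ± 0.144 CPM in *Morc2b*-/- testes (SD, n = 4 each), with a log2 difference of 0.34 (SE 0.43). The gene lies on the plus strand at chr2:29744741-29787266 with 22 exons. It has 5 listed transcripts, of which 1 had counts. Reads shared by several transcripts were counted to none, so the level of *Odf2* is understated by an unknown amount. Its pattern across samples likewise rests on the reads of that 1 transcript and need not hold for the whole gene.

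No gene of the group passed the test for a difference between genotypes. By edgeR's quasi-likelihood test with Benjamini-Hochberg adjustment the adjusted p was 0.9998 for each of the 10, and 0% of the 13507 genes tested were called. At an unadjusted p under 0.05 the test called 0 of the 10 genes and 1.84% of all genes, 249 in number, and DESeq2 called 1 gene at an adjusted p under 0.05, which was none of the 10. For *Tnp1*, *Tnp2*, *Prm1*, *Prm2* and *Spem1* DESeq2 gave no adjusted p. The exact two-sided permutation test over all 70 assignments of the genotype labels gave p between 0.314 and 0.600 for single genes, where the smallest possible p is 0.0286. The log2 difference was above 0 for 10 of 10 genes and above 1 for 7 of 10, against 0.503% of all genes above 1 and 0.888% below -1, and the median was 1.20 against 0.00222 over all genes. These shares are likewise a description, since the genes were chosen with earlier results known. The genotypes overlapped for 10 of 10 genes, and 1.29% of all genes had samples that did not overlap. These p-values rest on the spread between the 8 samples, each of 1 animal. That spread does not separate differences between animals from differences in the handling of the samples.

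The sign and size of the differences depended on KO3 and WT1. Without KO3 the log2 differences of 9 of 10 genes turned negative, to values from -0.56 (*Odf1*) to -1.41 (*Tnp2*). Without WT1 they rose to values from 3.16 (*Odf1*) to 8.55 (*Tnp2*), still with no call. With the wild type counts of *Tnp2* then at 0, 3 and 0, its fitted value depends on the prior count of the fit. Without both samples, an alternative chosen after seeing the data, 5 genes could be tested and 0 were called, and the differences were above 0, with 2.87 for *Tnp1*, 4.47 for *Prm2*, 1.28 for *Odf1*, 0.53 for *Odf2* and 1.91 for *Oaz3*. Between samples of a genotype, 9 of the 10 genes varied more than 95% of all genes tested. The biological coefficient of variation of *Tnp2* was 2.22, the highest of the 13507 genes, and those of *Prm2* and *Prm1* were 1.96 and 1.94 at ranks 7 and 10. The median over all genes was 0.164, and *Odf2* had 0.370.

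**Figure D2:**
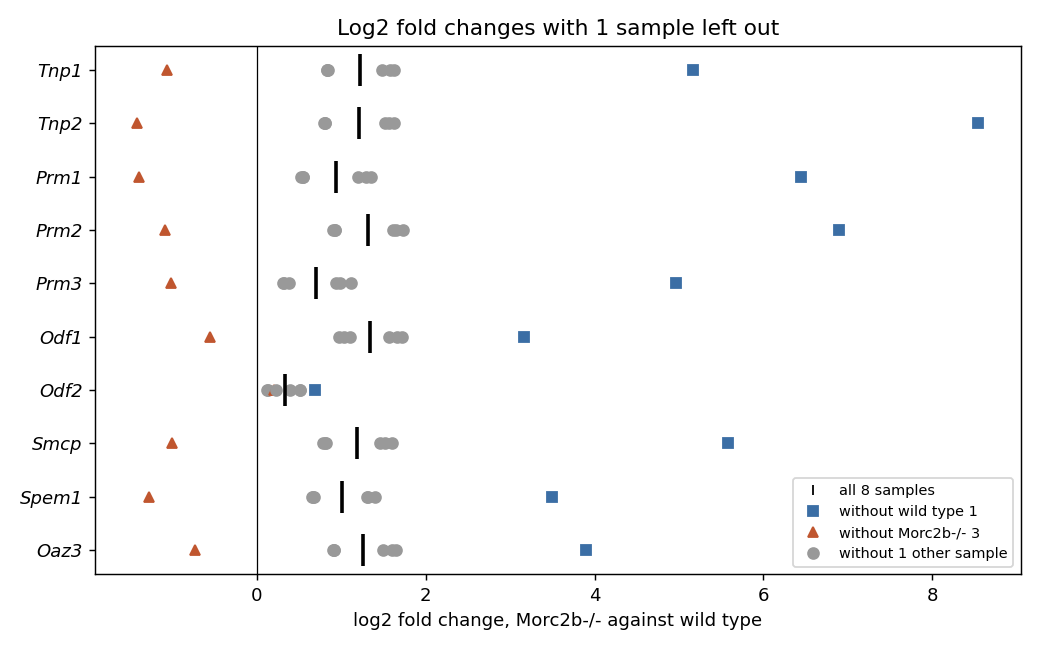
Log2 difference (*Morc2b*-/- minus wild type, edgeR) of each of the 10 genes with all 8 samples and with each sample left out in turn. Without KO3 the points of 9 genes lie below 0, down to -1.41 for *Tnp2*, and without WT1 those of 9 genes lie above 3, whereas *Odf2* stays between 0.12 and 0.69.

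The ratios of the genes to one another were then compared between WT1, KO3, KO2 and KO1, the libraries in which the transcripts were most frequent. Ratios are given per 100 counts of *Tnp1* with exact (Clopper-Pearson) 95% intervals, which cover counting error only and compare libraries, not genotypes.

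*Smcp*, *Spem1*, *Odf1* and *Oaz3* had ratios to *Tnp1* whose intervals overlapped among these libraries. Per 100 *Tnp1* counts there were 14.5 *Smcp* counts in WT1, 19.1 in KO1, 14.1 in KO2 and 13.9 in KO3. For *Oaz3* the ratio was 20.2 in WT1, 24.6 in KO1, 26.3 in KO2 and 21.5 in KO3. For *Odf1* it ran from 6.28 in WT1 to 10.9 in KO1, and for *Spem1* from 4.89 in KO2 to 10.9 in KO1. In each of these 4 genes, 0 of the 6 pairs of libraries had intervals that did not overlap, which does not show that the ratios were equal. The lowest and highest *Odf1* intervals, for example, were 5.19 to 7.55 in WT1 and 6.52 to 17.4 in KO1. *Odf2* ran from 0.541 in KO3 to 7.10 in KO1, and 3 of 6 pairs did not overlap.

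Ratios among the nuclear genes were near one another but differed beyond counting error in some pairs of libraries. *Tnp2* stood at 46.1 per 100 *Tnp1* counts in WT1 (42.5 to 49.9) and 45.5 in KO3 (43.0 to 48.1), while KO2 had 33.8 (28.2 to 40.4). KO1, with 40.4 (30.4 to 53.3), overlapped the other libraries. *Prm1* had 55.4 in WT1 (51.3 to 59.7) and 44.3 in KO3 (41.9 to 46.9), so the 2 libraries with the most transcripts differed beyond counting error. *Prm2* had 66.3 in WT1 (61.8 to 71.2) and 69.6 in KO3 (66.2 to 73.1), which overlapped. KO2 was lowest with 56.6 (48.7 to 65.7) and did not overlap KO3 or KO1, the highest with 86.3 (69.3 to 107.4).

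The balance of *Prm2* to *Prm1* also differed between libraries beyond counting error. Per 100 *Prm1* counts there were 119.8 *Prm2* counts in WT1 (110.4 to 130.04), 123.6 in KO2 (103.3 to 148.0), 156.9 in KO3 (147.7 to 166.8) and 216.4 in KO1 (163.0 to 289.7). The intervals did not overlap in 3 of 6 pairs of libraries, with WT1 below KO3 and KO1 and KO2 below KO1. *Prm3* was 5.36 per 100 *Prm2* counts in WT1 (4.14 to 6.83) and 3.33 in KO3 (2.67 to 4.11), and the intervals did not overlap in 2 of 6 pairs.

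**Figure D3:**
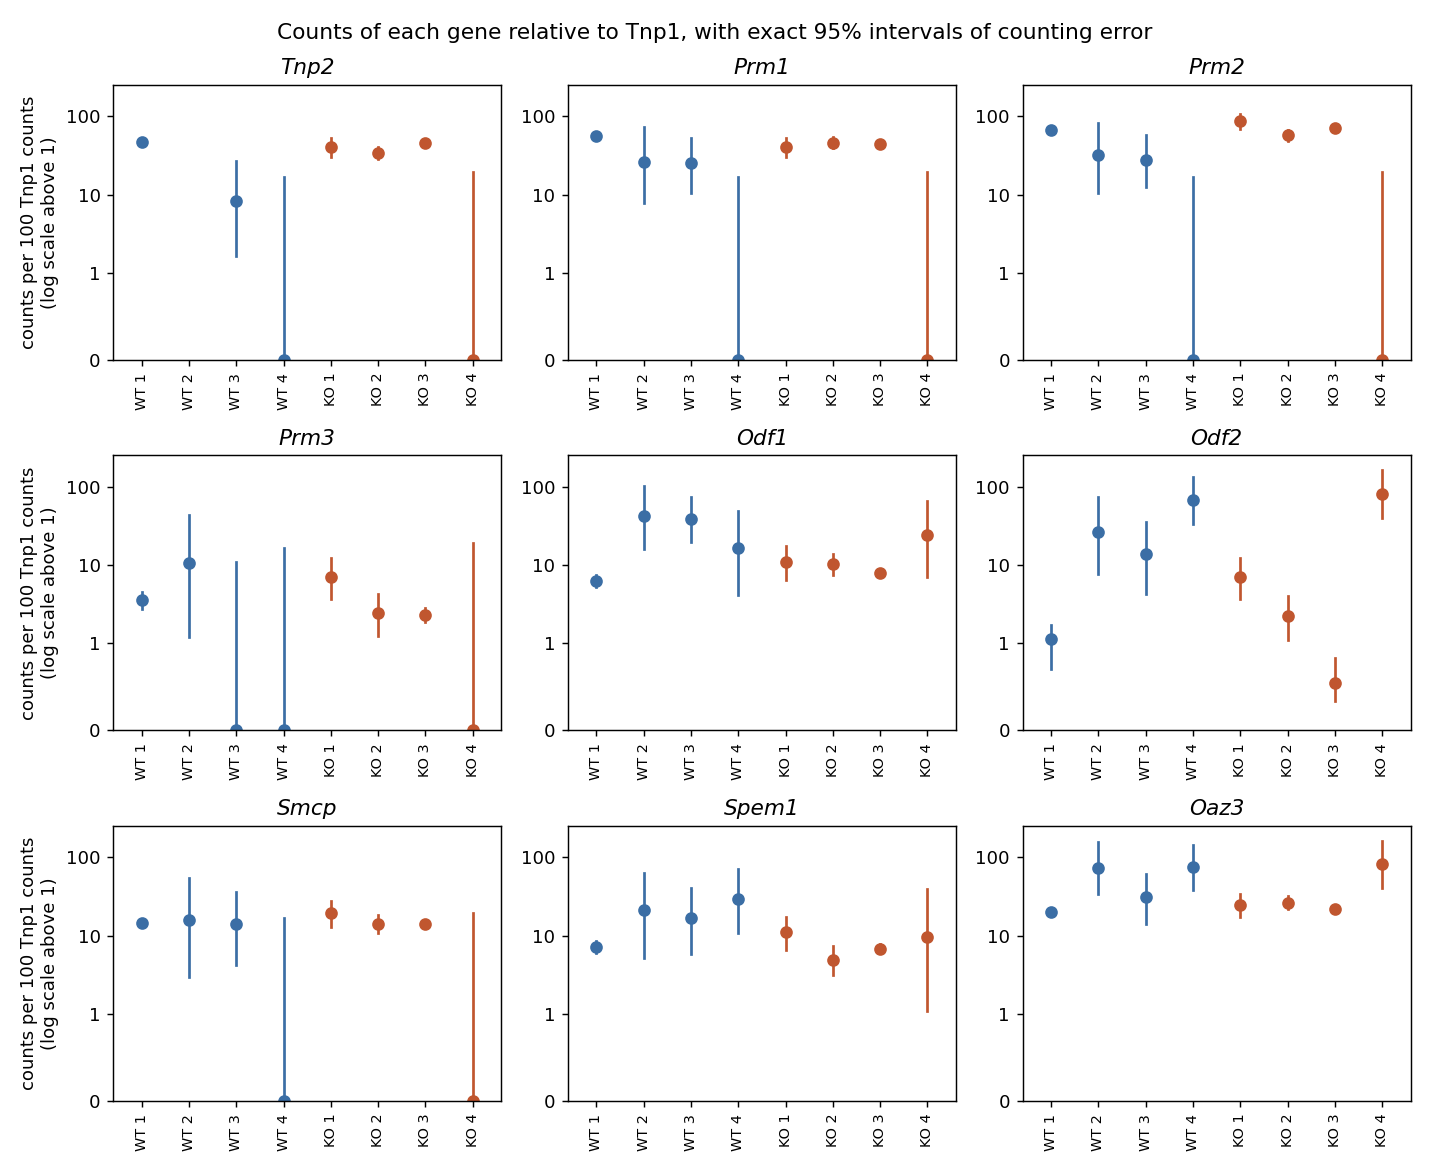
Counts of each of 9 genes per 100 counts of *Tnp1* in each library with at least 20 counts of the pair, with exact 95% intervals for counting error, on an axis that is linear near 0 and logarithmic above (blue wild type, orange *Morc2b*-/-). The points of WT1, KO1, KO2 and KO3 lie close together for *Smcp* (13.9 to 19.1), while *Odf2* runs from 0.541 in KO3 to 81.0 in KO4.

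In WT4 and KO4, which held few of these transcripts, *Tnp1*, *Oaz3* and *Odf2* had the most counts. Because they are the top genes of these libraries, a high combined share there is built in. Their share was 88.7% of the 62 counts of the group in KO4 and 84.1% of the 69 in WT4, against 39.1% in KO3 and 37.8% in WT1. WT2 and WT3, with as few counts, lay between, at 57.6% and 52.5%. *Tnp1* alone made up 33.9% in KO4 and 34.8% in WT4, near its 32.0% in KO3 and 31.2% in WT1. The contrast in the combined share therefore came from *Oaz3* and *Odf2*. *Oaz3* reached 75.0 counts per 100 of *Tnp1* in WT4 (38.4 to 144.1) and 81.0 in KO4 (40.1 to 161.1), above the intervals of WT1, KO1, KO2 and KO3. *Tnp2* had 0 counts beside 24 of *Tnp1* in WT4 and 0 beside 21 in KO4, for which the exact intervals reach up to 16.6 and 19.2 *Tnp2* counts per 100 of *Tnp1*. Both upper ends lie below the lowest bound of the 4 libraries with more transcripts, 28.2 in KO2. *Prm1* and *Prm2* were likewise at 0 in both libraries, with the same upper ends. *Smcp* and *Prm3* were at 0 there too, but at this depth their zeros do not separate WT4 and KO4 from libraries with 13.9 to 19.1 *Smcp* or 2.32 to 7.10 *Prm3* counts per 100 of *Tnp1*. In WT3, with 36 *Tnp1* counts, *Tnp2* was 8.33 per 100 (1.64 to 26.4), also below the 4 libraries with more transcripts, whereas *Prm2* in WT2, at 31.6 (10.3 to 82.2), overlapped WT1.

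KO3 held about the same multiple of WT1 for most of the genes. The ratio of CPM was 2.10 for *Tnp1* (95% interval 1.99 to 2.22), 2.07 for *Tnp2* (1.91 to 2.25), 2.21 for *Prm2* (2.06 to 2.36) and 2.24 for *Oaz3* (1.99 to 2.54). The intervals of these genes overlap, in the nucleus and outside it. *Smcp* had 2.02 (1.74 to 2.34) and *Spem1* 2.0 (1.62 to 2.47). *Prm1* at 1.68 (1.56 to 1.82) and *Prm3* at 1.37 (0.991 to 1.90) lay lower, and *Odf2* was level at 1.00 (0.525 to 1.91). *Odf1* lay higher at 2.63 (2.12 to 3.27), but its interval overlapped that of *Tnp1*. The median of the 9 genes without *Odf2* was 2.07, whereas the median over all genes was 1.00 and 90% of genes lay between 0.611 and 1.51. Against WT1, KO2 held a median of 0.214 of the CPM of the 9 genes and KO1 a median of 0.146. In the same library WT1, epididymis genes stood at 279 CPM, and whether this bears on its counts of the 10 genes was not tested.

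**Figure D4:**
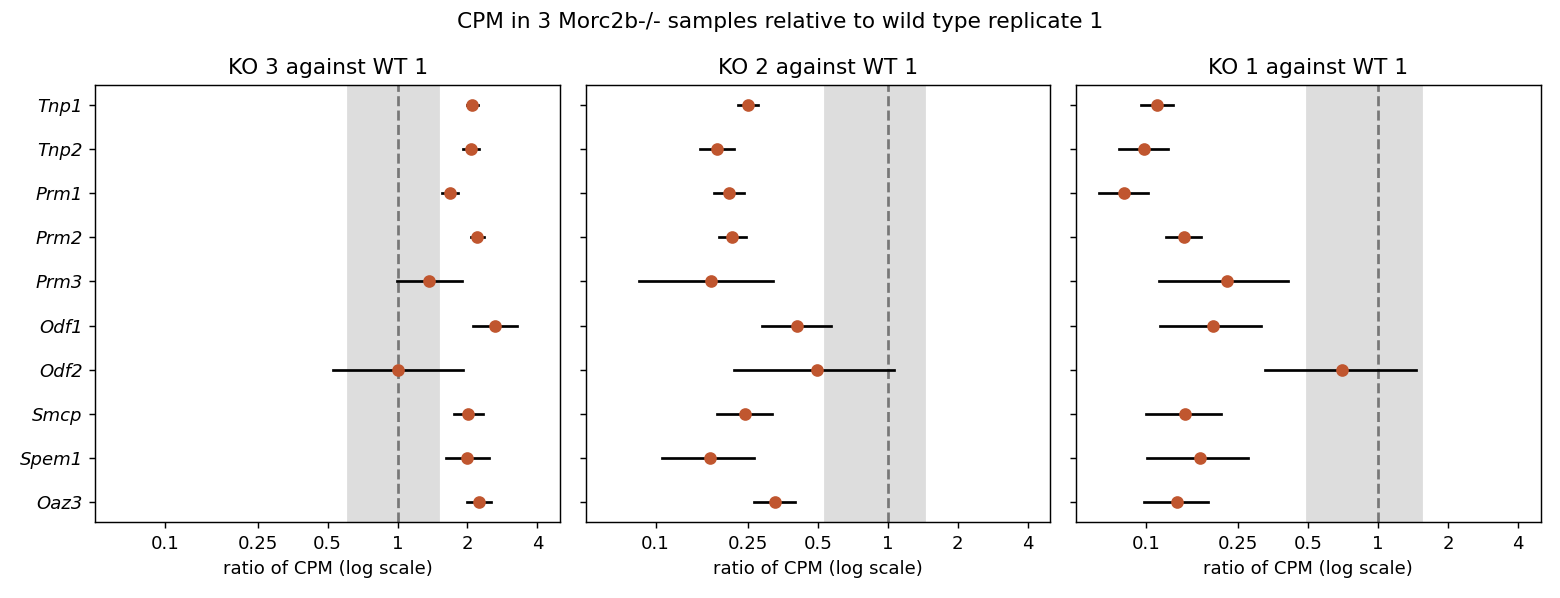
Ratio of CPM in KO3, KO2 and KO1 to that in WT1 for each of the 10 genes, with 95% intervals for counting error on a log axis. The grey band holds the central 90% of all genes and the dashed line their median. For KO3 against WT1 the genes other than *Odf2* lie between 1.37 and 2.63, and the band runs from 0.611 to 1.51.

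Other genes of spermatids took the same shape only in part. Of 13 tested genes of the acrosome and spermatid cytoplasm, 12 had a log2 difference above 0 and 1 below (median 0.47), 0 were called, and 10 had KO3 highest and WT1 second. The 3 with the most counts, *Dnajb3* (a heat shock co-chaperone), *Hspa1l* (a testis heat shock protein) and *Izumo1* (the sperm protein that joins the egg), had KO3 to WT1 ratios of 1.31, 1.65 and 1.74. Of 7 tested genes of the spermatid nucleus, 3 lay above 0 and 4 below, 0 were called, and 2 had that order. *Brdt* (a testis bromodomain protein) and *Brwd1* had log2 differences of -0.29 (SE 0.33) and -0.0029 (SE 0.079), and *Papolb* (a poly(A) polymerase of the testis) -0.10 (SE 0.24). These 3 have the most counts of the list and were well detected in all 8 samples. The spermatid linker histone genes *Hils1* and *H1f7*, named after their values were seen, followed the 10 genes. *Hils1* had 180, 2, 2 and 1 counts in WT1 to WT4 and 15, 42, 377 and 2 in KO1 to KO4, and *H1f7* had 134, 1, 0 and 0 and 13, 21, 258 and 0. Their KO3 to WT1 ratios were 2.20 and 2.02.

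Of 8 tested genes of flagellum accessory structures, 4 lay above 0 and 4 below, 0 were called, and 3 had KO3 highest and WT1 second. *Ropn1l*, *Catsper2* and *Akap3*, the 3 with the most counts, had log2 differences of -0.69 (SE 0.41), -0.26 (SE 0.25) and 0.16 (SE 0.36). *Cabs1* and *Ropn1* of this list and *Capza3* of the acrosome and cytoplasm list, also named after their values were seen, had KO3 to WT1 ratios of 2.52, 2.06 and 2.33 and at most 2 counts in WT2, WT3, WT4 and KO4. The pathways of *Oaz3* and *Odf2* gave no call. Of 8 tested polyamine genes 4 lay above 0 and 4 below, and *Odc1*, the enzyme that antizymes restrain, had 103.2 ± 12.6 CPM in wild type and 104.7 ± 22.5 CPM in *Morc2b*-/- testes (SD, n = 4 each). *Srm* and *Sms*, the synthases of spermidine and spermine, had log2 differences of 0.05 (SE 0.11) and 0.02 (SE 0.10), and the other antizyme genes *Oaz1* and *Oaz2*, with 2 listed transcripts each, were listed at 0 in all samples, which is no measure of their level. Of 9 tested centriole appendage genes 9 lay below 0 (median -0.08, against 0.00222 over all genes), and 0 were called. Since they share the same 8 libraries, their signs are not independent of one another. An unadjusted p under 0.05 was reached by 1 of them and by 1.84% of all genes. *Cntrl*, *Cep83* and *Cep170*, the 3 with the most counts, had KO3 to WT1 ratios of 0.928, 0.957 and 0.990.

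Of the 9 tested regulators of spermatid genes 1 lay above 0 and 8 below (median -0.18, against 0.00222 over all genes), and 0 were called. An unadjusted p under 0.05 was reached by 1.84% of all genes and by 1 of these 9. That gene was *Crem*, named after its values were seen, with 22, 18, 13 and 30 counts in WT1 to WT4 and 10, 12, 7 and 8 in KO1 to KO4. Its genotypes did not overlap, and the log2 difference was -1.24 (SE 0.29) with an unadjusted p of 0.0019 and an adjusted p of 0.9998 by edgeR's quasi-likelihood test with Benjamini-Hochberg adjustment. It has 18 listed transcripts, and reads shared by them were counted to none. Of the 3 with the most counts, *Taf7l*, a germ cell form of a TFIID subunit, stood at 565.6 ± 59.9 and 691.1 ± 125.2 CPM (SD, n = 4 each). *Tbpl1*, a TBP relative of the testis, and *Ddx25*, an RNA helicase of spermatids, had log2 differences of -0.04 (SE 0.10) and -0.10 (SE 0.09). Beside the protamine cluster, *Socs1* had 11 counts in all 8 samples and *Litaf* had 184.4 ± 5.44 and 196.3 ± 7.64 CPM, with a KO3 to WT1 ratio of 1.12. That ratio was 0.981 for *Rmi2*, so both neighbours with many counts lay below the 1.37 to 2.21 of the cluster genes. Markers of early meiosis summed to 1137, 1534, 899 and 1697 CPM in WT1 to WT4 and 810, 1228, 900 and 1732 CPM in KO1 to KO4, an order that differs from that of the 10 genes. Markers of pachytene spermatocytes summed to 852, 1039, 529 and 1267 CPM in WT1 to WT4 and 443, 862, 813 and 909 CPM in KO1 to KO4. *Tex101* alone stood at 638 CPM in WT1 and 804 in KO4. Of the 7 tested markers, 1 lay above 0 and 6 below (median -0.50), and 0 were called. *Piwil1*, with a log2 difference of -1.93 (SE 0.53), was the 1 marker with an unadjusted p under 0.05, against 1.84% of all genes. Just 1 marker had KO3 highest and WT1 second. That gene was *Pgk2*, named after its values were seen, as were *Ldhc* and *Piwil1*. It had 388, 8, 5 and 24 counts in WT1 to WT4 and 30, 85, 778 and 5 in KO1 to KO4. Pearson r with the mean of the 9 genes without *Odf2* was 0.94 for *Pgk2*, 0.37 for *Ldhc* and -0.38 for *Piwil1*.

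**Figure D5:**
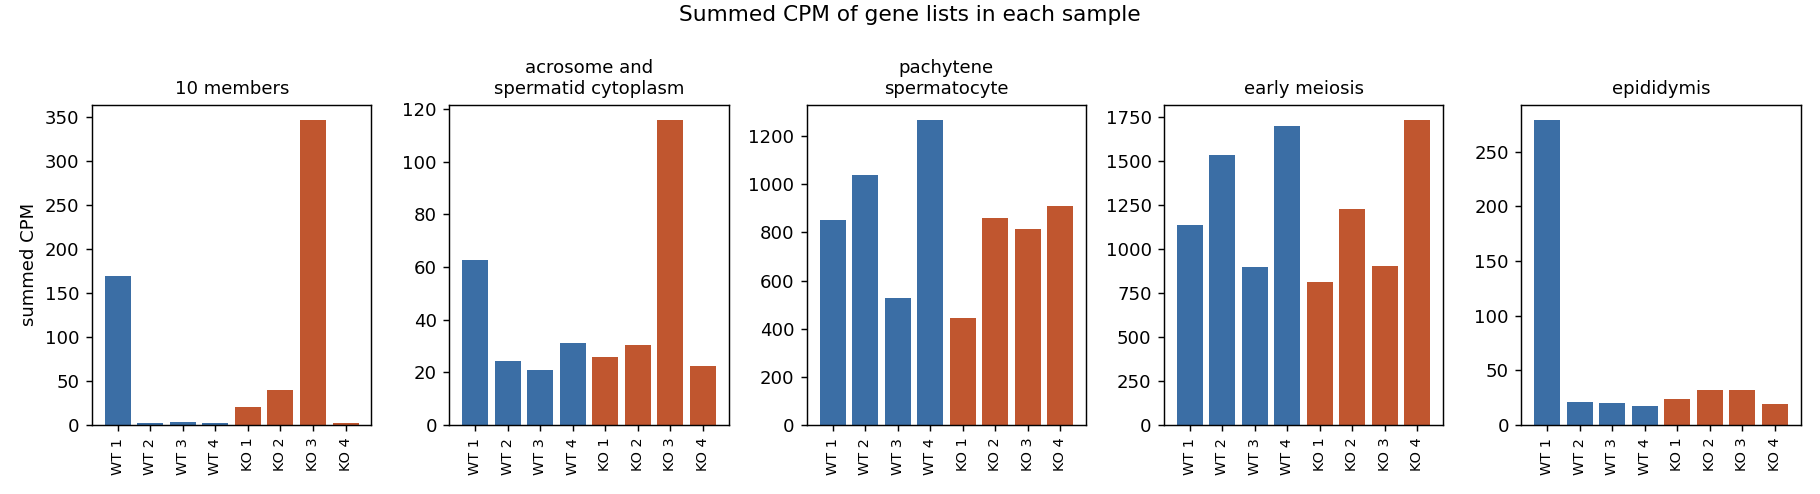
Summed CPM in each of the 8 samples of the 10 genes and of 4 other lists, the acrosome and spermatid cytoplasm, pachytene spermatocyte, early meiosis and epididymis genes (blue wild type, orange *Morc2b*-/-). The 10 genes stand at 347.2 CPM in KO3 and 169.5 in WT1 and between 2.13 and 3.53 in WT2, WT3, WT4 and KO4, whereas the early meiosis genes lie between 810 and 1732 in all samples and the epididymis genes reach 279 in WT1.

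The genes whose levels across the 8 samples were most like the mean of the 9 genes without *Odf2* were *Cypt12*, *1700019M22Rik* and *Hmgb4*, with Pearson r of 0.999, 0.999 and 0.996 among 14517 other genes. *Cypt12*, for example, had 256, 1, 2 and 0 counts in WT1 to WT4 and 22, 57, 457 and 0 in KO1 to KO4. The next were *Iqcf4*, *Tmco5*, *Gtsf1l*, *1700017L05Rik*, *Fam170b*, *Iqcf3* and *Ccdc54*, down to r of 0.992. The likeness is given as a description, since all genes share the same 8 libraries and the value rests mainly on the few libraries with many counts. Of all 14517 genes, 272 or 1.87% had r above 0.9. *Odf2* had r of 0.39 with the 9 genes, and its own closest genes were *Tuba1a*, *Fmod*, *Ptrhd1*, *Cpped1* and *Tuba1c*, with r from 0.935 to 0.959.

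Per kilobase of the longest coding transcript, which allows levels of different genes to be compared, *Tnp1* led with 265.9 CPM per kb in KO3 and 126.5 in WT1. *Prm2* followed in KO3 with 125.1, then *Prm1* with 105.1 and *Tnp2* with 92.1. In WT1 the order of the next genes was *Prm1* with 62.4, *Prm2* with 56.7 and *Tnp2* with 44.4. In counts *Prm2* exceeded *Prm1* in both libraries, so the order in WT1 depends on the annotated lengths of 618 bases for *Prm2* and 469 for *Prm1*. *Oaz3* and *Smcp* had 21.2 and 19.0 in KO3, *Odf1* 7.90, *Spem1* 7.26, *Prm3* 6.33 and *Odf2* 0.152. The place of *Odf2* rests on the count of 1 of its 5 transcripts.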

How the data were processed

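RNA of 8 pairs of testes was sequenced with a stranded mRNA kit (75 cycles). The authors trimmed the reads, aligned them with Tophat (NCBI37/mm9) and deposited unnormalized read counts for each RefSeq transcript. Counting program and strand setting are not given in the sources used here. Reads shared by several transcripts (26.8% to 28.8% of uniquely aligned reads) were left out. Of 35819 transcripts, 35522 matched a symbol; 297, with 0.484% of counts, stayed separate. Counts were summed per symbol. Genotypes were compared in edgeR 4.0.16 (R 4.3.3) with TMM, filterByExpr and the quasi-likelihood test, genotype as the single term, at a Benjamini-Hochberg adjusted p under 0.05. Exact permutation tests used log2 CPM with a prior count of 2. Ratios needed at least 20 counts in the pair. The fit was tested on simulated data. DESeq2 1.42.0, limma-voom (limma 3.58.1), RLE, other filters, single transcripts, the replicate block and left-out samples were alternatives. From each list the 3 genes with the most counts were named, with the 10 members, *Morc2b*, the 10 genes most like the 9 members without *Odf2* and the 5 most like *Odf2*. The epididymis genes at 0 and others so marked were chosen after their values were seen. Members and lists were chosen with earlier results of these data known. The columns of coordinates follow NCBIM37, and promoter windows GRCm38.p6.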

Additional observations from a re-analysis of the deposited data

Results flagged for a closer look

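In groups of 4 samples, a sample was marked when its gap to the nearest other sample was over 0.829 of the whole range. For normally distributed values chance alone gives this in about 1 in 20 groups. The CPM used here need not meet that condition, so the rate may not hold for them. Of the 20 groups tested, 18 were marked, 9 in wild type through WT1 and 9 in *Morc2b*-/- testes through KO3. *Odf2* was marked in neither genotype.

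WT1 stood apart with 52.9 CPM of *Tnp1*, 24.4 of *Tnp2*, 29.3 of *Prm1*, 35.1 of *Prm2* and 1.88 of *Prm3*. It also stood apart with 3.32 CPM of *Odf1*, 7.68 of *Smcp*, 3.78 of *Spem1* and 10.7 of *Oaz3*. KO3 stood apart with 111.1 CPM of *Tnp1*, 50.5 of *Tnp2*, 49.3 of *Prm1*, 77.3 of *Prm2* and 2.58 of *Prm3*. Its values for the other genes were 8.73 CPM of *Odf1*, 15.5 of *Smcp*, 7.55 of *Spem1* and 23.95 of *Oaz3*. The 9 marks of a genotype rest on 1 library and are not independent of one another.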

How the results depend on the processing

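Of 374 recomputed values, 364 were labelled the same as in the main analysis, 9 reversed and 1 moved. Among them, 83 were ratios from the transcript with the most counts. These could not change, since only 1 transcript of each gene had counts. Another 83 were ratios with 0.5 count added to each gene, judged only by whether they stayed within their own intervals. The total is therefore no measure of robustness. All 9 reversals came without KO replicate 3. With each sample left out in turn, the log2 differences ranged from -1.07 to 5.17 for *Tnp1*, -1.41 to 8.55 for *Tnp2*, -1.40 to 6.44 for *Prm1*, -1.09 to 6.90 for *Prm2*, -1.01 to 4.96 for *Prm3*, -0.56 to 3.16 for *Odf1*, 0.12 to 0.69 for *Odf2*, -0.9999 to 5.58 for *Smcp*, -1.27 to 3.50 for *Spem1* and -0.73 to 3.90 for *Oaz3*. The highest values came without WT replicate 1. DESeq2 called 1 gene in place of 0, and the cause was not tested. Requiring 10 counts in every sample left *Tnp1* and *Oaz3* to test.

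Same-numbered samples did not deviate together in every pair (correlations of their deviations from -0.32 to 0.45 over 4 pairs), so the numbers were not taken to pair the samples. With the replicate block, 0 genes were called, 572 against 249 had an unadjusted p under 0.05, and the log2 difference was 2.15 for *Tnp1*, 3.55 for *Tnp2*, 3.08 for *Prm1* and 3.25 for *Prm2*. Counting error limits every ratio in WT2, WT3, WT4 and KO4, which held 62 to 99 counts of the 10 genes.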
